A study of Homo sapiens with 18 samples.

Results

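Cholesterol and the unsaturated fatty acids are made by enzymes whose genes respond together to the sterol content of the cell. Followed here were 33 genes, for such enzymes and for their regulators, a carrier and exporters, in THP-1 cells treated with an siRNA against TRAFD1. The rule lists the genes by name, but the list was drawn up with earlier results of these data known. They cover the mevalonate pathway, the sterol branch, the sterol sensors and a sterol carrier, fatty acid synthesis and desaturation, and the liver X receptors (LXR) with their targets. Of the 33 genes, 32 had an identifier in the deposited count table of 63677 genes and 31 had enough counts to be tested among 16678 tested genes. ACACA, which encodes the acetyl-CoA carboxylase that starts fatty acid synthesis, was matched to no row of the table and was not analysed here. CYP51A1, the lanosterol 14-demethylase, had 0 to 2 counts in every library and 7 counts over all 18 libraries, and was not tested.

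THP-1 is a human monocytic leukaemia line that grows in suspension. The cells were transfected with 25 nM of the TRAFD1 siRNA (KD), 25 nM of a scrambled, non-targeting siRNA (SCR) or no siRNA (WT), and 72 h later they received 10 ng/ml lipopolysaccharide (LPS, from E. coli) or medium alone for 4 h. This gave 6 groups of 3 libraries, with replicates numbered 1 to 3 in the unstimulated groups and 4 to 6 in the LPS groups. The labels disagree on WT, which is called untreated in one place and transfected without siRNA in another, so that in a difference between SCR and WT the siRNA and the transfection cannot be told apart. All groups come from the same line, the treatments were made in triplicate, and nothing says that the replicates were separate cultures, so that p-values measure the spread between these libraries. Cells in all groups were grown in medium with serum, and their lipid content was not analysed here.

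Cells sense cholesterol in the membrane of the endoplasmic reticulum. When sterol is scarce, SCAP carries the SREBP proteins to the Golgi, where they are cut and released as transcription factors that switch on the genes of cholesterol and fatty acid synthesis, and when sterol is abundant INSIG proteins hold SCAP back. For cholesterol, LXR works in the opposite sense, because oxysterols activate it and its targets ABCA1 and ABCG1 move cholesterol out of the cell. In monocytes and macrophages these programmes are known to be rewired by Toll-like receptor signals such as LPS.

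The promoters of 3 genes that rose with LPS in WT are shown because the SREBP proteins act at promoters together with the CCAAT-binding factor NF-Y. The RefSeq table used here (GRCh38.p14) held a window of 250 bases before to 50 bases after the start of 28 of the 33 genes. Each is written in the direction of transcription, with the letters CCAAT or their reverse complement ATTGG in capitals. HMGCS1 lies on the minus strand at chr5:43313363-43313662, STARD4 on the minus strand at chr5:111512486-111512785 and HSD17B7 on the plus strand at chr1:162790452-162790751.
HMGCS1: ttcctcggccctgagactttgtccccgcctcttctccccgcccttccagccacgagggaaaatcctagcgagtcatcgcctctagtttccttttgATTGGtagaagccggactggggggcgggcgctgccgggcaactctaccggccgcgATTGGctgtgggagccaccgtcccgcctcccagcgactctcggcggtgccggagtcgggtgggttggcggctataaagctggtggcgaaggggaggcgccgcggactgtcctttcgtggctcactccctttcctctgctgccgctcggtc
STARD4: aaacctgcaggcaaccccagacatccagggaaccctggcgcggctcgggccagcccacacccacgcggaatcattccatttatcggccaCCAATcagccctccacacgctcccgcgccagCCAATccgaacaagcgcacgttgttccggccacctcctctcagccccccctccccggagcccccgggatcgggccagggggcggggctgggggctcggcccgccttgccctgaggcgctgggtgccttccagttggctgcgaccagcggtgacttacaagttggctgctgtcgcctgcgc
HSD17B7: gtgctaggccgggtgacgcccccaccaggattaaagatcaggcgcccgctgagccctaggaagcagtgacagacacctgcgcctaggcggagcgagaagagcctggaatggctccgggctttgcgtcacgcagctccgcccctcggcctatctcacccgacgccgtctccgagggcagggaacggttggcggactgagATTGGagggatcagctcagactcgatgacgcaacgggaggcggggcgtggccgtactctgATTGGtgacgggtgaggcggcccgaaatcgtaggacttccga
Each of the 3 windows holds 2 matches to CCAAT, counted on both strands, and these 2 do not overlap. CCAAT stood in 17 of the 28 members' windows (60.7%) and in 35.7% of all 27305 promoter windows of the table. GGGCGG, the letters of a GC box, stood in 25 of the 28 (89.3%) and in 44.6% of all windows, both strands counted. The sterol regulatory element, searched as TCACNCCAC on both strands, matched 1 member, SREBF2 (3.57% of the 28), and 1.15% of all windows. These matches describe letters in a window, and their relation to the measurements was not tested.

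Library totals ran from 8206023 to 22344279 counts, and values below are CPM, counts scaled to the total of the library after TMM normalization. A gene with 0 counts may have had up to 3, which was 0.134 to 0.366 CPM. Such limits cover counting error only. The libraries were made with a 3′ kit in which a fragment stands for a transcript, so that gene length does not enter the CPM values. TRAFD1 was at 20.1 to 26.8 CPM in SCR and 5.37 to 11.6 CPM in KD without LPS (edgeR log2 fold change -1.45 ± 0.23 SE, adjusted p = 0.0277), a call that was lost without KD unstimulated replicate 2 or SCR unstimulated replicates 1 or 3 (adjusted p = 0.064 to 0.119) or with the libraries of the comparison alone (0.0847). With LPS it was at 18.7 to 27.5 CPM in SCR and 13.8 to 15.8 CPM in KD, and the difference of -0.65 ± 0.22 missed the threshold (edgeR adjusted p = 0.262), which it passed without the filter on low counts (0.0275). The LPS-induced genes TNF, IL1B and NFKBIA passed the test upwards in each of the 3 LPS responses. Of 10 myeloid markers, 8 had 3 or more counts in every library, and the summed level of the 10 was 459 to 645 CPM over all 18 libraries. The myeloid factor CEBPA was at 0 to 0.154 CPM. Summed T cell, erythroid and epithelial markers reached at most 0.403 CPM in a library, and fibroblast markers 2.94 CPM through COL1A1.

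Among the tested members, single libraries ranged from 0.504 CPM for ABCG1, a cholesterol exporter, to 632 CPM for SCD, the stearoyl-CoA desaturase. SCD and FASN, the fatty acid synthase, stood highest, with group means of 459 to 585 CPM and 430.2 to 580.4 CPM, ranges that overlap. HMGCS1, the synthase that makes HMG-CoA, followed at 249 to 412 CPM. ABCG1 stood lowest, with group means of 0.976 to 5.46 CPM. Some counts cannot be given to a single gene with certainty, as a strand setting for the counting was not given in the sources used here. The last 500 bases of CYP51A1 lie within the span of AKAP9 on the other strand, those of ACAT2 within TCP1, those of SREBF1 within RAI1 and those of FADS1 within FADS2. The 3′ ends of HMGCS1, IDI1, FDPS, LSS and EBP lie within the span of an antisense or unnamed gene. CYP51A1 also has 3 pseudogenes that hold 700 counts in all. HSD17B7, with 2420 counts in all, has the near copies HSD17B7P1 and HSD17B7P2 with 2171 counts.

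LPS for 4 h moved a minority of the members, and not in a single direction. In WT, 10 of 31 members passed an adjusted p of 0.05 in edgeR's quasi-likelihood test, against 14.3% of all tested genes, with 6 higher (7.01% of all genes) and 4 lower (7.26%). In SCR 7 members passed, against 17.2% of all genes, with 5 higher (8.64%) and 2 lower (8.56%). In KD 3 members passed, against 11.5% of all genes, all of them higher (6.41%, with 5.05% of all genes lower). The LPS and unstimulated libraries did not overlap for 17 members in WT, 14 in SCR and 10 in KD. This was so for 5428, 6213 and 4242 of all 16678 tested genes. The members that rose included HMGCS1 and MVK of the mevalonate pathway, SQLE, LSS and HSD17B7 of the sterol branch and the sterol carrier STARD4. Those that fell included SREBF1, SCAP and the LXR target ABCG1. STARD4 was the member that passed in all 3 LPS responses, 4 members passed in 2 of them and 9 in 1. How many of all tested genes passed in 3, 2 or 1 of the responses was not counted. Of the myeloid markers, CD14 was lower with LPS in WT, SCR and KD (-0.74, -1.53 and -1.07 on the log2 scale) and CD33 in KD (-0.50), and their part in these results was not tested. In bulk RNA, a change in the share of cells that hold a transcript and a change in the amount per cell cannot be told apart.

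Over the 3 LPS responses, which share no library, 12 members had a positive log2 fold change in all 3, 8 a negative one in all 3 and 11 were of mixed sign. The share of all tested genes with the same sign in all 3 was not counted. The median log2 fold change of the members was -0.01 in WT, 0.09 in SCR and 0.11 in KD, beside -0.03, -0.03 and 0.00 for all tested genes. The counts depend on single libraries. In WT, the count was 6 without WT unstimulated replicate 1 or 3 or without WT LPS replicate 5 or 6, where 10.1% to 10.7% of all genes passed. In SCR it was 4 without SCR unstimulated replicate 1 or 2 (10.9% and 13.8% of all genes). In KD it was 10, with 7 higher and 3 lower, without KD unstimulated replicate 1, and the share of all genes also rose, from 11.5% to 18.3%. It was 1 without KD unstimulated replicate 2 or KD LPS replicate 5 (9.08% and 6.37% of all genes).

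**Figure D1:**
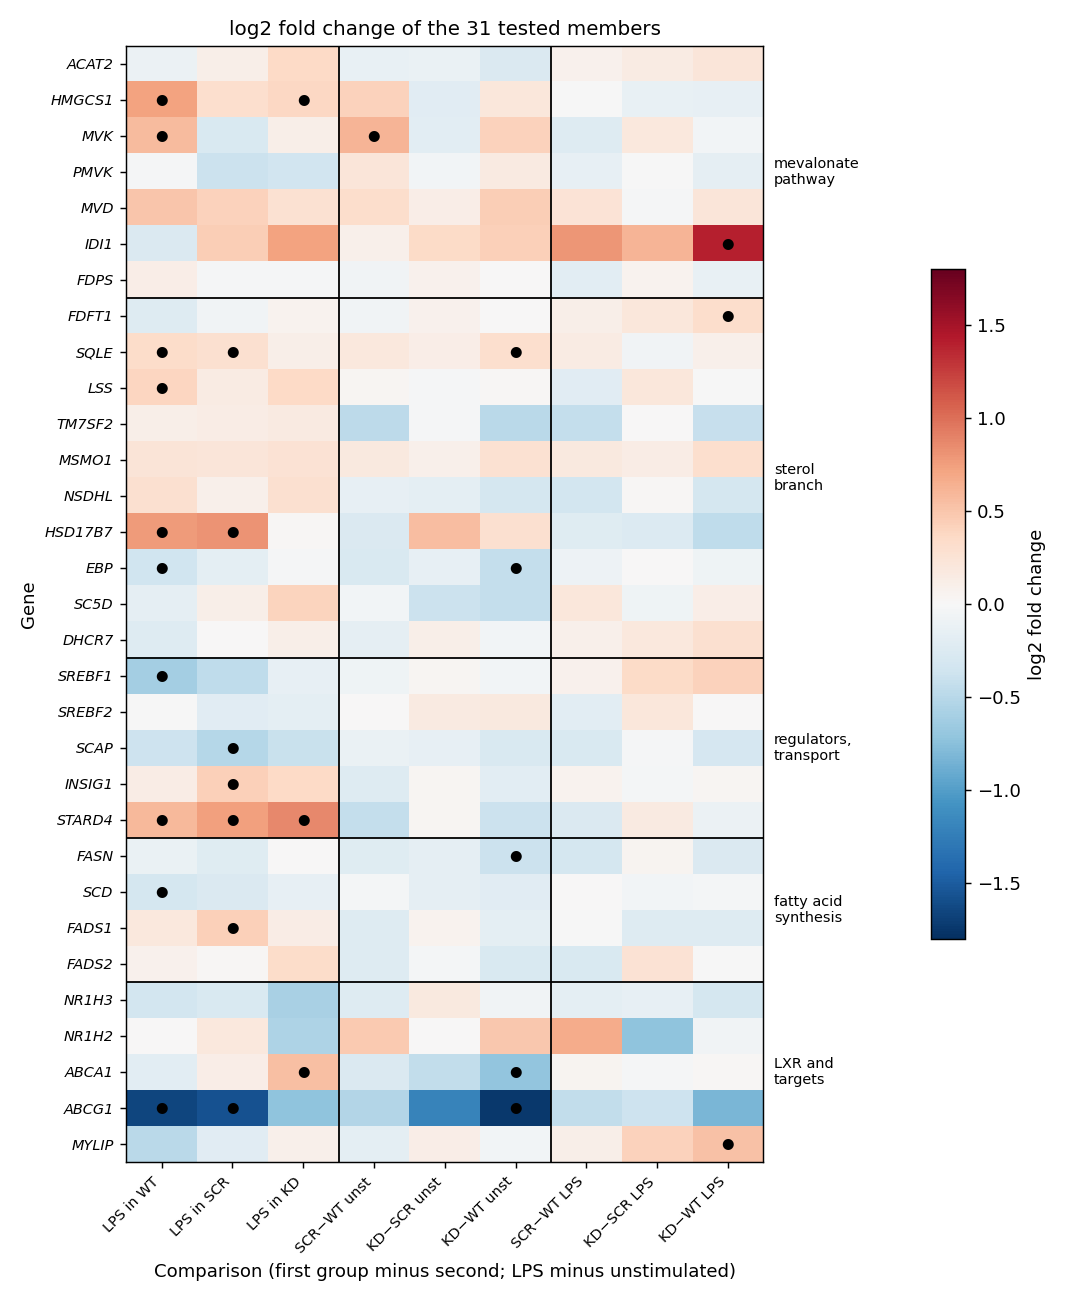
Log2 fold change (colour, from edgeR) of the 31 tested members (rows, grouped by role) in 9 comparisons (columns, first group minus second), with black dots where the adjusted p is under 0.05. Dots sit in the 3 LPS columns, the SCR against WT column without LPS and the KD against WT columns, and none sits in the KD against SCR columns.

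In the mevalonate pathway, which builds farnesyl diphosphate from acetyl-CoA, 2 of 7 tested genes rose with LPS in WT, none passed in SCR (by edgeR 0 with 2 at an unadjusted p under 0.05, by DESeq2 0) and 1 rose in KD. Of all 16678 tested genes, 5004 had an unadjusted edgeR p under 0.05 in SCR. HMGCS1 (ENSG00000112972, chr5:43287572-43313614 of GRCh37) makes HMG-CoA, the substrate of the rate-limiting step. In WT its level was 232, 226 and 287 CPM without LPS and 405, 419 and 412 CPM with LPS. All LPS libraries lay above all unstimulated ones, and HMGCS1 rose by 0.73 ± 0.12 on the log2 scale (edgeR adjusted p = 0.000156). In SCR it was 356, 322 and 313 CPM without LPS and 325, 479.5 and 420.3 CPM with LPS, and the groups overlapped (0.31 ± 0.12, edgeR adjusted p = 0.0782, and 0.0376 without the filter). In KD it was 309, 301 and 253 CPM without and 355, 372 and 385 CPM with LPS, groups that did not overlap, with a log2 fold change of 0.37 ± 0.12 (edgeR adjusted p = 0.0488). The call in WT was kept in all 6 fits that left out a library, and the call in KD was lost without KD unstimulated replicate 2 or 3 or without any of the 3 KD LPS replicates (adjusted p = 0.0597 to 0.22), with RLE size factors (0.0603) and with the libraries of the comparison alone (0.0763).

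MVK, the mevalonate kinase, passed in WT and not in SCR or KD by edgeR. In WT it was 25.6, 35.5 and 34.5 CPM without LPS and 44.4, 45.7 and 51.6 CPM with LPS. These groups did not overlap and MVK rose by 0.57 ± 0.14 on the log2 scale (edgeR adjusted p = 0.00824), a call lost without WT unstimulated replicate 1, the lowest of the 18 libraries for this gene (adjusted p = 0.0618). In SCR the order was the other way round, with 48.3, 45.7 and 51.2 CPM without LPS and 34.6, 42.4 and 42.8 CPM with LPS, but the difference of -0.27 ± 0.14 missed the threshold (edgeR adjusted p = 0.199). In KD the log2 fold change was 0.11 ± 0.14. The other 5 tested genes of the pathway (ACAT2, PMVK, MVD, IDI1 and FDPS) passed in no LPS response by edgeR or DESeq2. Without the filter on low counts, IDI1 passed in SCR and KD (edgeR adjusted p = 0.0178 and 1.15e-05) and ACAT2 in KD (0.0253), and without KD unstimulated replicate 1 both passed in KD (0.000777 and 0.0079). IDI1 itself had 200 to 1518 counts in a library. Its log2 fold change in KD was 0.71 without the filter and 0.72 ± 0.33 with it (edgeR adjusted p = 0.174). PMVK passed in SCR without SCR unstimulated replicate 2 (0.0425). IDI1, the isopentenyl diphosphate isomerase, had the widest replicate spread of the tested members (median coefficient of variation 29.8% over the 6 groups), with KD unstimulated libraries at 87.8, 25.0 and 35.0 CPM.

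In the sterol branch, which turns farnesyl diphosphate into cholesterol, 4 of 10 tested genes passed in WT (3 higher, 1 lower), 2 in SCR (both higher) and none in KD (by edgeR 0 with 2 at an unadjusted p under 0.05, by DESeq2 0). Of all 16678 tested genes, 4357 had an unadjusted edgeR p under 0.05 in KD. HSD17B7 (ENSG00000132196, chr1:162760492-162782613), a 3-ketosteroid reductase of the late pathway, had the largest rise of the branch in WT and SCR. In WT it was 8.76, 8.26 and 7.38 CPM without LPS and 14.1, 15.0 and 12.4 CPM with LPS. The SCR levels were 6.71, 6.76 and 6.85 CPM without and 10.3, 13.7 and 11.5 CPM with LPS. In both arms every LPS library lay above every unstimulated library, with log2 fold changes of 0.77 ± 0.17 in WT and 0.81 ± 0.17 in SCR (edgeR adjusted p = 0.00317 and 0.00234), and both calls were kept without any single library. In KD the gene was at 8.12, 11.9 and 9.80 CPM without LPS, above all SCR libraries, and at 10.3, 9.12 and 10.7 CPM with LPS. These KD groups overlapped, with a log2 fold change of 0.02 ± 0.17 (edgeR adjusted p = 0.96).

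SQLE, the squalene epoxidase and a control point of the branch, was 93.4, 102 and 98.9 CPM without LPS and 122, 122 and 124 CPM with LPS in WT. Its SCR levels were 111, 114 and 110.4 CPM without and 119, 152 and 138 CPM with LPS. The groups did not overlap in either arm, and SQLE rose by 0.32 ± 0.09 in WT and 0.29 ± 0.09 in SCR on the log2 scale (edgeR adjusted p = 0.0226 and 0.036). The call in WT was kept only without WT unstimulated replicate 2 among the fits that left out a library, and the adjusted p was 0.0553 to 0.0957 in the other 5 and 0.0953 without the filter. The call in SCR was likewise kept only without SCR LPS replicate 4, and the adjusted p was 0.0661 to 0.196 in the other 5, 0.116 without the filter and 0.0537 with the libraries of the comparison alone. In KD its log2 fold change was 0.11 ± 0.09 (edgeR adjusted p = 0.486).

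LSS, the lanosterol synthase, rose in WT from 18.8, 21.2 and 21.0 CPM to 29.6, 25.8 and 24.2 CPM, groups without overlap (log2 fold change 0.39 ± 0.12, edgeR adjusted p = 0.0377). Among the fits that left out a library, the call held only without WT LPS replicate 6, with an adjusted p of 0.0584 to 0.186 without each of the other 5 libraries, and was also lost without the filter (0.207) and with the libraries of the comparison alone (0.0631). EBP, the sterol isomerase named for emopamil binding, fell in WT from 116, 131 and 141 CPM to 108, 96.3 and 97.8 CPM, again without overlap (-0.36 ± 0.11, edgeR adjusted p = 0.0251). Its call was lost without WT unstimulated replicate 2 or 3 or WT LPS replicate 5 or 6 (adjusted p = 0.0581 to 0.131). LSS and EBP passed in neither SCR nor KD. FDFT1, TM7SF2, MSMO1, NSDHL, SC5D and DHCR7 passed in no LPS response by edgeR or DESeq2 (MSMO1 passed in KD without KD unstimulated replicate 1, adjusted p = 0.00974), and of these TM7SF2, MSMO1 and NSDHL had a positive log2 fold change in all 3.

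Among the sterol sensors and the carrier, STARD4 (ENSG00000164211, chr5:110831731-110848288), which moves cholesterol between membranes, rose in each arm. In WT its level was 41.9, 31.5 and 33.1 CPM without LPS and 58.0, 57.2 and 44.1 CPM with LPS. In SCR it was 24.1, 27.3 and 28.0 CPM without and 41.6, 48.2 and 42.8 CPM with LPS, and in KD it was 31.4, 23.4 and 26.7 CPM without and 47.3, 54.7 and 45.8 CPM with LPS. No unstimulated library reached the lowest LPS library of its own arm. The log2 fold changes were 0.58 ± 0.14 in WT, 0.74 ± 0.14 in SCR and 0.86 ± 0.14 in KD (edgeR adjusted p = 0.00662, 0.000973 and 0.000293). All 3 calls were kept in every fit that left out a library and in every other alternative fit.

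SREBF1, which encodes the SREBP-1 factors that drive fatty acid synthesis, fell in WT from 54.4, 49.3 and 41.4 CPM to 34.1, 34.5 and 25.9 CPM (log2 fold change -0.62 ± 0.16, edgeR adjusted p = 0.0115). The groups did not overlap, and the call was lost without WT unstimulated replicate 1 or WT LPS replicate 6 (adjusted p = 0.0621 and 0.0736). In SCR it was 43.9, 45.8 and 47.9 CPM without and 31.7, 35.7 and 32.2 CPM with LPS, also without overlap (-0.46 ± 0.16, edgeR adjusted p = 0.0509). That value lies just above 0.05, was under it in the 4 alternative fits that left out no library of the comparison, and ranged from 0.00748 to 0.151 over the alternatives. In KD, at 58.6, 33.2 and 48.2 CPM without and 41.9, 44.9 and 39.2 CPM with LPS, the groups overlapped (-0.15 ± 0.16).

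SCAP, the escort of the SREBP proteins, fell in SCR from 58.5, 74.5 and 61.1 CPM to 40.0, 43.2 and 51.6 CPM (log2 fold change -0.52 ± 0.17, edgeR adjusted p = 0.0403). The groups did not overlap, and among the fits that left out a library the call held only without SCR LPS replicate 6, the highest of the 3 LPS libraries, with an adjusted p of 0.054 to 0.172 without each of the other 5. It was also lost with RLE size factors (0.0513). INSIG1, which retains SCAP and is itself an SREBP target, rose in SCR from 117, 115 and 139 CPM to 164, 171 and 162 CPM without overlap (0.43 ± 0.12, edgeR adjusted p = 0.0171), and the call was lost without SCR unstimulated replicate 1 or 2 or SCR LPS replicate 5 (adjusted p = 0.055 to 0.077). By edgeR neither gene passed in WT or KD, where SCAP had -0.37 ± 0.17 and -0.40 ± 0.17 and INSIG1 0.13 ± 0.12 and 0.36 ± 0.12. In KD, INSIG1 missed the threshold in edgeR (adjusted p = 0.0564) and passed in DESeq2 (0.0393), without the filter (0.0373) and without KD unstimulated replicate 1 (0.000652). SCAP passed in KD without the filter (0.0432) or without that library (0.00763), and in WT without WT unstimulated replicate 1 (0.0484). SREBF2, which encodes the factor with the closest tie to cholesterol synthesis, passed in no comparison under any fit and stayed between 103 and 165 CPM in all 18 libraries.

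Of the 4 tested genes of fatty acid synthesis and desaturation, 1 fell in WT, 1 rose in SCR and none passed in KD (by edgeR 0 with 1 at an unadjusted p under 0.05, by DESeq2 0). An unadjusted edgeR p under 0.05 in KD was reached by 4357 of all 16678 tested genes. SCD, which introduces the first double bond, was 583, 539 and 632 CPM without LPS and 453, 501 and 455 CPM with LPS in WT, groups without overlap (log2 fold change -0.32 ± 0.10, edgeR adjusted p = 0.0473). Among the fits that left out a library its call held only without WT unstimulated replicate 2, with an adjusted p of 0.0548 to 0.186 without each of the other 5, and it was also lost with RLE size factors (0.0568). In SCR, SCD passed without SCR LPS replicate 5 (0.0351). FADS1, the delta-5 desaturase of polyunsaturated fatty acids, was 150.0, 130.4 and 143 CPM without and 188, 176 and 206 CPM with LPS in SCR. The groups did not overlap and FADS1 rose by 0.42 ± 0.11 on the log2 scale (edgeR adjusted p = 0.00958), a call lost without SCR unstimulated replicate 2 or SCR LPS replicate 6 (adjusted p = 0.0501 and 0.0565). FASN and FADS2 passed in no LPS response, and the FASN log2 fold changes were -0.12 ± 0.10, -0.21 ± 0.10 and 0.01 ± 0.10 in WT, SCR and KD.

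Among the LXR receptors and targets, ABCG1 (ENSG00000160179, chr21:43619799-43717354), which exports cholesterol to lipoproteins, fell with LPS in WT and SCR. In WT it was 5.26, 5.09 and 6.05 CPM without LPS and 1.85, 2.17 and 1.18 CPM with LPS. In SCR it was 3.56, 4.66 and 3.23 CPM without and 0.504, 2.02 and 1.13 CPM with LPS. In neither arm did the groups overlap. The log2 fold changes were -1.65 ± 0.36 in WT and -1.56 ± 0.37 in SCR (edgeR adjusted p = 0.00282 and 0.00539), the largest of any member in these 2 responses, and both calls were kept without any single library and in every other alternative fit. In KD the gene was at 1.95, 1.16 and 1.79 CPM without LPS and at 0.874, 1.14 and 0.915 CPM with LPS, and the difference of -0.73 ± 0.40 missed the threshold (edgeR adjusted p = 0.248). The lowest library held 4 counts of ABCG1, so that counting error is large for this gene.

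ABCA1, the exporter that lipidates apolipoprotein A-I, rose with LPS in KD. Its level there was 33.6, 23.1 and 28.1 CPM without and 37.8, 44.7 and 41.5 CPM with LPS, groups that did not overlap (log2 fold change 0.55 ± 0.14, edgeR adjusted p = 0.0137). The call was lost without KD unstimulated replicate 2 or KD LPS replicate 5 (adjusted p = 0.0701 and 0.0702) and with the libraries of the comparison alone (0.0769). In WT, at 53.0, 38.1 and 47.6 CPM without and 39.0, 39.4 and 43.5 CPM with LPS, the groups overlapped, and so they did in SCR. The receptors NR1H3 and NR1H2 and MYLIP, an LXR target that marks lipoprotein receptors for degradation, passed in no LPS response by edgeR. By DESeq2, NR1H3 passed in KD (adjusted p = 0.037) and MYLIP in WT (0.0462, beside 0.0541 in edgeR). NR1H3 had log2 fold changes of -0.33 ± 0.19, -0.27 ± 0.19 and -0.58 ± 0.19 in WT, SCR and KD, the last with an edgeR adjusted p of 0.0517 that ranged from 0.00534 to 0.198 over the alternatives and was 0.0463 with RLE size factors. NR1H2 passed in KD without KD unstimulated replicate 1 (0.0338), and MYLIP in WT with the libraries of the comparison alone (0.0388).

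**Figure D2:**
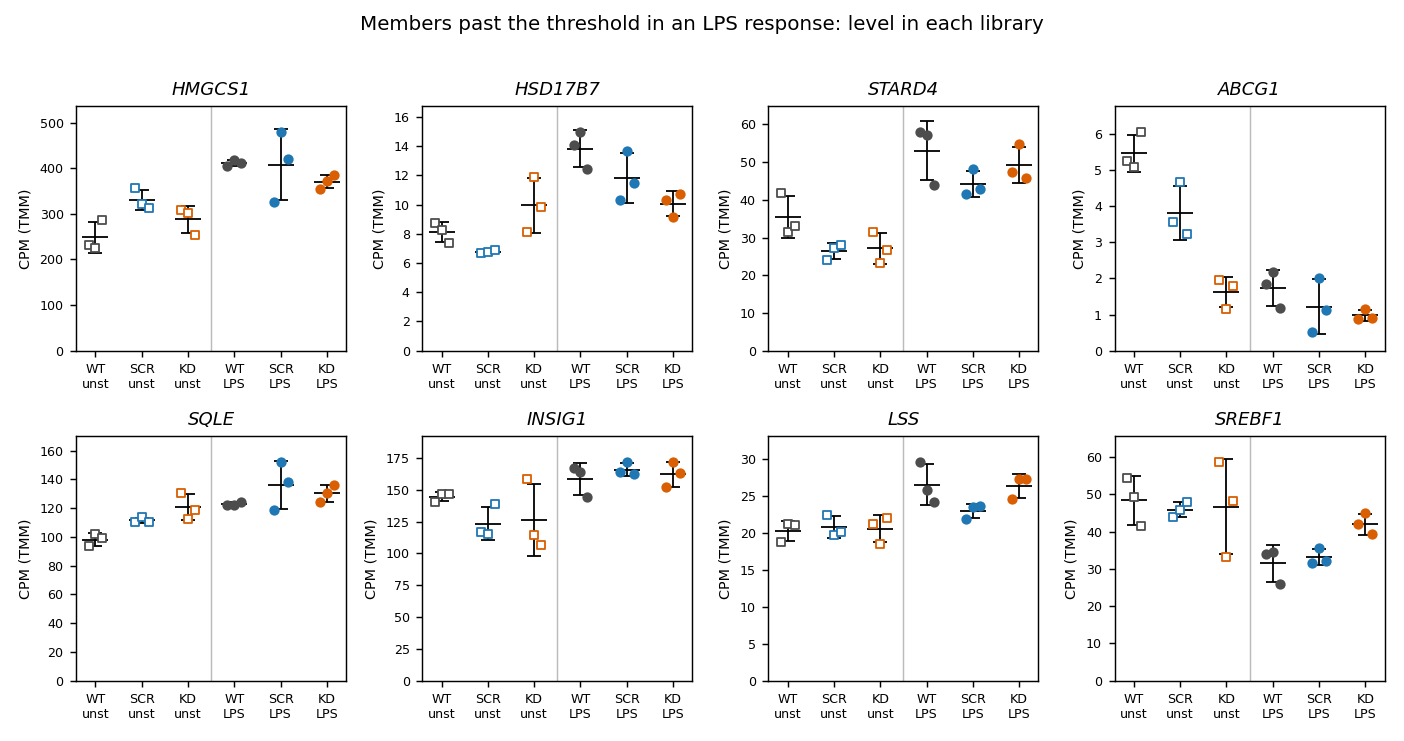
Level (CPM scaled by TMM, vertical axis from 0) of 8 members in each library, by group on the horizontal axis. Open squares are unstimulated and filled circles LPS libraries, and the bars show mean ± SD (n = 3). STARD4 lies higher with LPS in all 3 arms, HSD17B7 in WT and SCR, and ABCG1 is lower with LPS in WT and SCR.

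Passing in an arm and missing in another does not show that the responses differ, so the differences between the LPS responses were tested themselves. By edgeR, 0 of 31 members passed for SCR against WT (0.234% of all tested genes, with 2 members at an unadjusted p under 0.05 and 1 by DESeq2), 0 for KD against SCR (0%, 3 unadjusted, 0 by DESeq2) and 0 for KD against WT (0.36%, 9 unadjusted, 1 by DESeq2). Of all 16678 tested genes, 1661, 1274 and 2593 had an unadjusted edgeR p under 0.05 in these 3 comparisons. DESeq2 called 0.241%, 0% and 0.751% of its 34091 genes for SCR against WT, KD against SCR and KD against WT. For HSD17B7 the difference of the LPS responses was -0.79 ± 0.24 for KD minus SCR (edgeR adjusted p = 0.569) and -0.75 ± 0.24 for KD minus WT (edgeR adjusted p = 0.168). For ABCG1 it was 0.83 for KD minus SCR and 0.92 for KD minus WT, and neither passed. The DESeq2 calls were MVK for SCR against WT, at -0.84 ± 0.20 in edgeR (adjusted p = 0.104, range 0.01 to 0.355 over the alternatives), and ABCA1 for KD against WT, at 0.74 ± 0.20 (edgeR adjusted p = 0.115, range 0.0108 to 0.315). With the replicate number as a block, edgeR also called MVK (adjusted p = 0.0448) and ABCA1 (0.021), and without the filter it called both (0.01 and 0.0198) and IDI1 in both comparisons (0.0402 and 0.000119). Without KD unstimulated replicate 1 the count for KD against WT was 5, namely HSD17B7, MYLIP, ACAT2, ABCA1 and IDI1, while the share of all genes rose from 0.36% to 7.64%. It was 1 without WT unstimulated replicate 2 (1.02% of all genes).

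KD against SCR is the comparison in which both arms carried an siRNA. Without LPS, 0 of 31 members passed in edgeR (0.066% of all tested genes). An unadjusted p under 0.05 was reached by 4 members, beside 2107 of all 16678 tested genes. DESeq2 called 0 members there, beside 0.701% of its 34091 genes. With LPS, 0 members passed in edgeR (0% of all genes), with 5 at an unadjusted p under 0.05, beside 1963 of all 16678 genes. DESeq2 also called 0 members with LPS, beside 0.402% of its genes. It gave an adjusted p to 2 of the 5 LXR genes and 8 of the 10 tested sterol branch genes, so that its 0 is not out of 31. The replicates of KD and SCR did not overlap for 6 of 31 members without LPS, beside 15.1% of all tested genes, and for 7 members with LPS, beside 21.5%. Leaving out any single library gave a count of 0 in both states. The members' median log2 difference was 0.01 without LPS and 0.01 with LPS, beside -0.01 and 0.02 for all genes.

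The largest difference between KD and SCR by fold change was in ABCG1 without LPS and in NR1H2 with LPS, and neither passed. They were picked as the largest of 31 values. Their group means were the lowest of the tested members (0.976 to 5.46 and 5.33 to 8.73 CPM), where counting error is largest. ABCG1 without LPS was 3.56, 4.66 and 3.23 CPM in SCR and 1.95, 1.16 and 1.79 CPM in KD, without overlap, at a log2 difference of -1.21 ± 0.36 (edgeR adjusted p = 0.151). ABCA1 was 39.2, 34.5 and 41.8 CPM in SCR and 33.6, 23.1 and 28.1 CPM in KD, also without overlap (-0.45 ± 0.14, edgeR adjusted p = 0.179). With LPS, NR1H2, the beta form of LXR, was 7.44, 9.04 and 9.71 CPM in SCR and 5.51, 4.68 and 5.79 CPM in KD (-0.72 ± 0.24, edgeR adjusted p = 0.246). These groups did not overlap, but the WT LPS libraries, at 4.28, 5.68 and 6.66 CPM, lay with KD. Among the synthesis genes, HSD17B7 had the largest value without LPS (0.55 ± 0.17, edgeR adjusted p = 0.178) and IDI1 with LPS (0.62 ± 0.33, edgeR adjusted p = 0.482), each higher in every KD than in every SCR library. IDI1 passed with LPS when no filter was applied (adjusted p = 0.00258).

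Against WT, which carried no siRNA, more members passed. Without LPS, 5 of 31 members differed between KD and WT, against 11.7% of all tested genes, with SQLE higher (5.85% of all genes) and EBP, FASN, ABCA1 and ABCG1 lower (5.85%). ABCG1 was 5.26, 5.09 and 6.05 CPM in WT and 1.95, 1.16 and 1.79 CPM in KD (log2 difference -1.73 ± 0.35, edgeR adjusted p = 0.003), with the SCR libraries at 3.23 to 4.66 CPM between the 2 groups. ABCA1 was 53.0, 38.1 and 47.6 CPM in WT and 33.6, 23.1 and 28.1 CPM in KD (-0.71 ± 0.14, edgeR adjusted p = 0.00226). For both exporters KD and WT did not overlap and the call was kept without any single library. In the fit to the 6 libraries of the comparison alone, ABCA1 lost its call (adjusted p = 0.0736, the highest of its alternatives, which reached down to 5.09e-05).

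EBP was 116, 131 and 141 CPM in WT and 96.5, 100.2 and 92.5 CPM in KD (-0.43 ± 0.11, edgeR adjusted p = 0.0121), a call lost without WT unstimulated replicate 3 (adjusted p = 0.0798) and with the libraries of the comparison alone (0.14). FASN was 532, 607 and 602 CPM in WT and 398, 469 and 465 CPM in KD (-0.39 ± 0.10, edgeR adjusted p = 0.0147), a call lost without KD unstimulated replicate 1 or WT unstimulated replicate 3 (adjusted p = 0.0591 and 0.0667) and with the libraries of the comparison alone (0.151). SQLE was 93.4, 102 and 98.9 CPM in WT and 131, 113 and 119 CPM in KD (0.30 ± 0.09, edgeR adjusted p = 0.0412), a call lost without KD unstimulated replicate 1 or 3 or WT unstimulated replicate 1 or 3 (adjusted p = 0.0731 to 0.141), without the filter (0.165) and with the libraries of the comparison alone (0.15). For none of these 3 genes did KD and WT overlap. The libraries of KD and WT without LPS did not overlap for 8 of 31 members, beside 4055 of all 16678 tested genes. The count of 5 became 9 without KD unstimulated replicate 2, where 10.4% of all genes passed, 2 without WT unstimulated replicate 3 (5.59%), and 1 with the libraries of the comparison alone (1.81%). Of the 9 tested myeloid markers, CD14 and CD68 were higher in KD than in WT without LPS, by 0.72 and 0.95 on the log2 scale, and the summed markers were 577 to 645 CPM in KD and 459 to 534 CPM in WT. Their part in these results was not tested.

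With LPS, 3 of 31 members were higher in KD than in WT, against 10.8% of all tested genes (6.29% higher, 4.55% lower). In the fit to the 6 libraries of the comparison alone, 10 members passed, 5 higher and 5 lower, and the share of all genes was 21.6%. IDI1 was 37.7, 34.8 and 19.6 CPM in WT and 76.8, 91.1 and 76.4 CPM in KD, without overlap, at a log2 difference of 1.41 ± 0.34 (edgeR adjusted p = 0.0134). The SCR LPS libraries, at 46.7, 74.9 and 37.6 CPM, overlapped with WT and lay below KD. The call was lost without KD LPS replicate 5 or WT LPS replicate 6 (adjusted p = 0.0546 and 0.0917). FDFT1, the squalene synthase that commits farnesyl diphosphate to sterols, was 226, 231 and 215 CPM in WT and 266, 278 and 293 CPM in KD (0.32 ± 0.09, edgeR adjusted p = 0.0266). Its call was lost without KD LPS replicate 5 or 6 or WT LPS replicate 4 or 6 (adjusted p = 0.0672 to 0.13) and without the filter (0.0642). MYLIP was 14.7, 16.4 and 17.0 CPM in WT and 20.7, 24.7 and 23.5 CPM in KD (0.52 ± 0.17, edgeR adjusted p = 0.0488), and the call was lost without any single library of the 6 (adjusted p = 0.0584 to 0.163), with RLE size factors (0.0544) and without the filter (0.0563). Neither FDFT1 nor MYLIP overlapped between KD and WT, and the count of 3 became 0 without KD LPS replicate 5 or WT LPS replicate 6 (3.46% and 2.18% of all genes) and 1 without KD LPS replicate 6 or WT LPS replicate 4 (6.41% and 6.34%). The libraries of KD and WT with LPS did not overlap for 18 of 31 members, beside 5838 of all 16678 tested genes.

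SCR and WT, the controls with and without an siRNA, differed in 1 member without LPS, against 3.23% of all tested genes. This was MVK, at 25.6, 35.5 and 34.5 CPM in WT and 48.3, 45.7 and 51.2 CPM in SCR, groups that did not overlap (0.61 ± 0.14, edgeR adjusted p = 0.0207). The count fell to 0 without SCR unstimulated replicate 1 or 3 or WT unstimulated replicate 1 (MVK adjusted p = 0.073, 0.0794 and 0.109) and was 2 without WT unstimulated replicate 3, with HMGCS1 as the other gene (0.0365), which DESeq2 also called (0.0264). Without LPS, the SCR and WT libraries did not overlap for 11 members, beside 3767 of all 16678 tested genes. With LPS, 0 members passed in edgeR (0.114% of all genes), with 3 at an unadjusted p under 0.05, beside 2285 of all 16678 genes. IDI1 passed with LPS without the filter (edgeR adjusted p = 7.9e-06). DESeq2 called 0 members with LPS, beside 0.607% of its 34091 genes. It gave an adjusted p to 3 of the 5 LXR genes and 9 of the 10 tested sterol branch genes. The comparisons of KD with WT and of SCR with WT share the WT libraries, and their values for MVK without LPS were 0.42 ± 0.14 (edgeR adjusted p = 0.0593, DESeq2 0.0435) and 0.61 ± 0.14. Of the myeloid markers, CD14 was higher in SCR than in WT by 1.14 on the log2 scale, and its part in this difference was not tested.

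**Figure D3:**
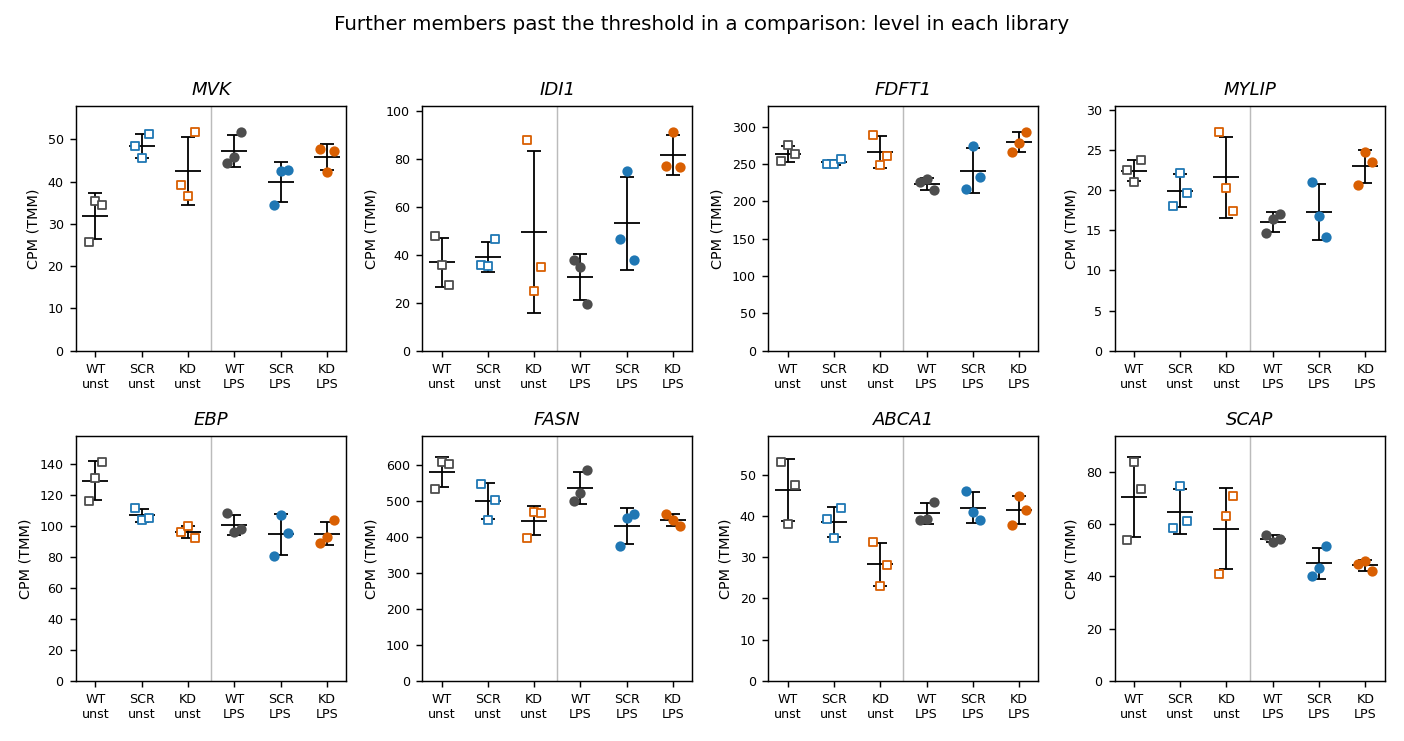
Level (CPM scaled by TMM, vertical axis from 0) of 8 further members in each library, by group on the horizontal axis. Open squares are unstimulated and filled circles LPS libraries, and the bars show mean ± SD (n = 3). ABCA1, EBP and FASN lie lower in KD than in WT without LPS, IDI1, FDFT1 and MYLIP lie higher in KD than in WT with LPS, and the IDI1 libraries of KD without LPS spread from 25.0 to 87.8 CPM.

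Another 30 genes of lipid metabolism were counted in the same way (fatty acid activation and elongation, SREBP processing, sterol storage and export, isoprenoid synthesis), of which 28 were tested. With LPS, 10 passed in WT (35.7%, beside 14.3% of all tested genes), of which 4 were higher. In SCR 7 passed (25%, beside 17.2%), of which 5 were higher. In KD 5 passed (17.9%, beside 11.5%), of which 4 were higher. Of all tested genes, 7.01%, 8.64% and 6.41% were higher in WT, SCR and KD. ACSL1, which activates long-chain fatty acids, PDSS1, which starts the side chain of ubiquinone from farnesyl diphosphate, and ME1, a source of NADPH, rose in all 3 responses. Their log2 fold changes in WT, SCR and KD were 1.79, 1.42 and 1.72 for ACSL1, 1.20, 1.35 and 1.35 for PDSS1 and 0.42, 0.46 and 0.53 for ME1. KD against SCR gave 0 of the 28 genes in either state by edgeR (0.066% and 0% of all genes without and with LPS), with 5 and 3 at an unadjusted p under 0.05. Such a p was reached by 2107 and 1963 of all 16678 tested genes. DESeq2 called 3 and 0 without and with LPS, beside 0.701% and 0.402% of its 34091 genes. With LPS it gave an adjusted p to 23 of the other lipid genes. KD against WT gave 5 without LPS (3 higher, 2 lower), among them RXRA, the partner of LXR, at -0.52. This was 17.9%, beside 11.7% of all genes (5.85% higher, 5.85% lower). With LPS it gave 2, both higher (7.14%, beside 10.8% of all genes, of which 6.29% higher). SCR against WT gave 2 without LPS, ACSL1 at 0.73 and RXRA at -0.49 (7.14%, beside 3.23% of all genes). With LPS it gave 0 by edgeR (0.114% of all genes) and 0 by DESeq2 (beside 0.607% of its genes). In edgeR 3 had an unadjusted p under 0.05, beside 2285 of all 16678 tested genes.

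**Figure D4:**
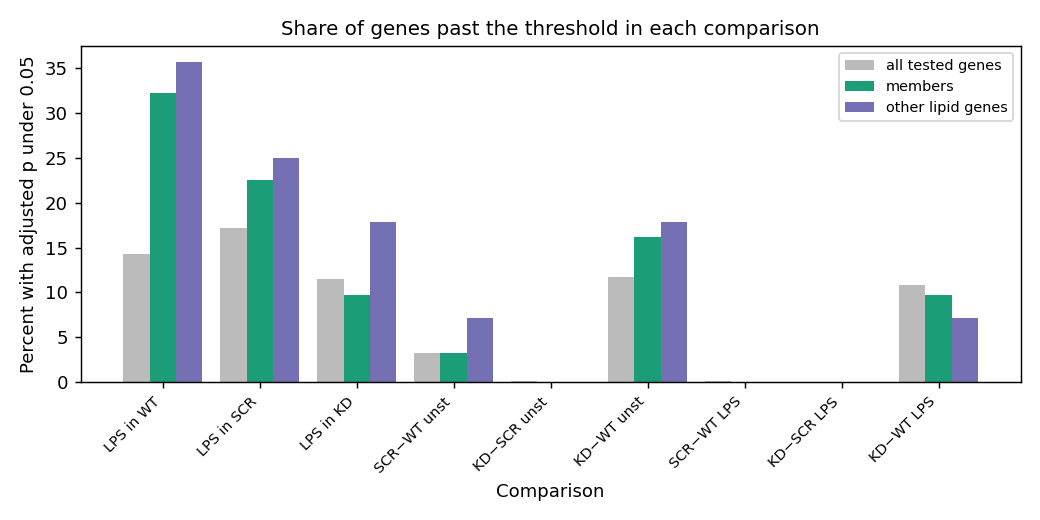
Percent of genes (vertical axis) with an edgeR adjusted p under 0.05 in 9 comparisons (horizontal axis) for all 16678 tested genes, the 31 tested members and the 28 tested other lipid genes. The members reach 32.3% with LPS in WT and 22.6% in SCR, beside 14.3% and 17.2% of all genes. With LPS in KD they reach 9.68%, beside 11.5%. In KD against WT they reach 16.1% without and 9.68% with LPS, beside 11.7% and 10.8%. The other lipid genes reach 35.7%, 25% and 17.9% with LPS in WT, SCR and KD. No bar of the members rises above 0 in KD against SCR.

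Over all 12 comparisons, 18 of 31 members (58.1%) passed at least once in edgeR, beside 38.2% of all tested genes, and 13 passed in none. DESeq2 called 20 members at least once (64.5%), and 16 (51.6%) were called with RLE size factors and 16 without the filter. The libraries of a comparison alone gave 18, and the replicate block, which covers no LPS response, gave 12. For these alternatives the share of all genes called at least once was not counted. The 13 were ACAT2, PMVK, MVD, FDPS, TM7SF2, MSMO1, NSDHL, SC5D, DHCR7, SREBF2, FADS2, NR1H3 and NR1H2. FDPS, the farnesyl diphosphate synthase, was among the steadiest, at 170.2 to 248 CPM over the 18 libraries, and its largest difference between 2 groups was -0.20 on the log2 scale. ACAT2, which condenses acetyl-CoA at the entry of the pathway, was at 157 to 246 CPM, and DHCR7, a reductase of the last steps, at 19.4 to 27.1 CPM. SC5D, the sterol desaturase, missed the threshold at -0.43 ± 0.14 in KD against WT without LPS (edgeR adjusted p = 0.0521) and passed it in DESeq2 (0.0342) and without the filter (0.033). Of the 13, SC5D and NR1H3 were called by DESeq2, and missing the threshold in edgeR does not show that the levels of these genes were equal.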

How the data were processed

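RNA of 18 libraries was measured with the QuantSeq 3′ kit. The authors removed adaptors, poly-A tails and low-quality reads, aligned the rest to GRCh37 with HISAT and counted them per Ensembl gene with featureCounts in the last 500 bases of each gene. The deposited values are raw counts, and all 18 columns were used. Symbols came from GENCODE v44lift37. Genes were kept with filterByExpr (minimum count 10), and edgeR 4.0.16 modelled the 18 libraries together by group (TMM, quasi-likelihood test, Benjamini-Hochberg adjustment over 16678 genes) in R 4.3.3, which was also tested on simulated data. The study used DESeq2, run here in version 1.42.0 as an alternative. CPM are scaled by TMM, and ± is the SE of a log2 fold change. Other alternatives were RLE size factors, no filter, the libraries of a comparison alone, a replicate block, leaving out each library, and the study's rule (adjusted p of at most 0.01, log2 change over 1). The members and lists were chosen with earlier results of these data known. The result of a further marker list is not reported here. Members past an adjusted p of 0.05 were described with every library, the others by range. Within a stimulation state the labels share replicate numbers. The numbers counted as pairs for SCR and WT with LPS, where deviations from the group means correlated at 0.221 to 0.315 across genes, and in no other pair of groups did every correlation exceed 0.1.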

Additional observations from a re-analysis of the deposited data

Results flagged for a closer look

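MVK had every LPS library above every unstimulated library in WT and below in SCR, which is what drew attention to it. The difference between the LPS responses, SCR minus WT, was -0.84 ± 0.20 on the log2 scale and missed the threshold in edgeR (adjusted p = 0.104), with a range from 0.01 to 0.355 over the alternatives. It passed with a replicate block (0.0448), in DESeq2 (0.0194) and without the filter (0.01).

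DHCR7 had every LPS library above every unstimulated library in KD, at 26.8, 26.6 and 27.1 CPM against 26.5, 23.8 and 24.7 CPM, and below in WT, at 21.6, 24.1 and 20.2 CPM against 24.8, 26.6 and 26.2 CPM. The difference between the responses, KD minus WT, was 0.33 ± 0.18 and missed the threshold in edgeR (adjusted p = 0.373). In KD the gap between the groups was smaller than the spread within the unstimulated libraries.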

How the results depend on the processing

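Of 29 calls of a member in a comparison, 10 were kept without any single library and 9 of these also in every other alternative fit, and no call changed sign in 299 alternative values (215 past the threshold, 84 not). Without one library at a time the number of members called ranged from 6 to 8 for LPS in WT, 4 to 7 in SCR, 1 to 10 in KD, 0 to 2 for SCR against WT without LPS, 2 to 9 and 0 to 2 for KD against WT without and with LPS, and 0 to 5 for the difference of the LPS responses of KD and WT, and it stayed at 0 in the other 5 comparisons. DESeq2 called 5 members for LPS in KD (beside 6.57% of its 34091 genes) and 2 for SCR against WT without LPS (2.69%). It called 1 each for the differences of the LPS responses of SCR and KD from WT (0.241% and 0.751%). Without a filter on low counts the numbers were 7 for LPS in KD (beside 6.56% of 34092 genes) and 2 and 1 for SCR against WT without and with LPS (2.25% and 1.74%). They were 1 for KD against SCR with LPS (1.25%) and 1 for KD against WT with LPS (6.24%). For the differences of the responses of SCR and KD from WT they were 2 each (0.707% and 2.14%). The libraries of a comparison alone gave 1 for LPS in KD (beside 5.58% of all genes). For KD against WT without and with LPS they gave 1 and 10 (5 higher, 5 lower), beside 1.81% and 21.6%. Under the study's rule 1 member remained for LPS in WT, for LPS in SCR and for KD against WT without LPS, and 0 elsewhere. The share of all genes under that rule was not counted. The cause of these shifts was not tested, except that the study's rule is stricter by construction.

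With a replicate block, 2 members passed for SCR against WT (beside 5.6% of all genes) and 8 for KD against WT (14.5%) without LPS. For the differences of the responses of SCR and KD from WT it was 1 each (0.246% and 3.28%). The block left SCR against WT with LPS, where the numbers count as pairs, at 0 (0.809%). In the other pairs of groups same-numbered libraries correlated from -0.092 to 0.432, so that the numbers were taken as shared names there. The LPS responses share no replicate numbers and could not be blocked.

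Values that were not called and changed sign were small or rested on a library. Leaving out a library, IDI1 ranged from -0.29 to 0.74, FDFT1 from -0.053 to 0.057 and MYLIP from -0.26 to 0.081 in KD against WT without LPS, ABCA1 from -0.034 to 0.087 in KD against WT with LPS, and HSD17B7 from -0.11 to 0.17, EBP from -0.083 to 0.028 and SREBF1 from -0.34 to 0.047 for LPS in KD. FDFT1 was also -0.0016 without a filter, and HSD17B7 -0.00035 with DESeq2 and -0.0014 with RLE size factors. Without TMM, 9 of 192 group levels moved by more than 1 SD. Depth limits ABCG1 most, at 4 counts in its lowest library, and 3 libraries in a group limit all tests.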

Other observations

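KD unstimulated replicate 1 was the highest of its group for IDI1 (87.8 against 25.0 and 35.0 CPM), MSMO1 (116 against 76.7 and 86.6 CPM), INSIG1 (159 against 114 and 106 CPM) and SREBF1 (58.6 against 33.2 and 48.2 CPM). The same library was the lowest of its group for FASN (398 against 469 and 465 CPM), SCAP (41.0 against 63.0 and 70.7 CPM), NSDHL (16.8 against 32.0 and 22.9 CPM) and TM7SF2 (4.50 against 10.00 and 7.39 CPM). Over the 31 tested members it was the highest of the 3 libraries for 14 and the lowest for 9. Other libraries were at an extreme of their group for more members. SCR LPS replicate 4 was the lowest for 22 and the highest for 3, and SCR LPS replicate 5 the highest for 17 and the lowest for 2. WT unstimulated replicate 1 was the lowest for 18 and the highest for 7. The named genes were chosen after their values were seen, and no test was made of these libraries.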
